A study of Mus musculus with 8 samples.

Results

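The transcripts described here encode the subunits of RNA polymerase II and of Mediator. The 44 genes were taken by symbol from a table of 24411 genes. They comprise the 12 Polr2 genes, 26 genes of the Mediator core and the 6 genes of the Mediator kinase module, and all 44 passed the filter on low counts. RNA was sequenced from hepatocytes, the parenchymal cells of the liver, which had been isolated from mice in which Taf2 was conditionally knocked out in hepatocytes (4 libraries) and from wild-type mice (4 libraries). Both kinds were plated and harvested 2 days later. The sources used here do not give the Cre driver, the strain, age or sex of the mice, or any pooling of animals. Nothing in the labels says that the libraries of a genotype came from separate animals or cultures, so p-values measure the spread between libraries, which may be technical. Library totals ran from 20287031 to 23933585 counts in the Taf2 knockout and from 18947060 to 22824561 in wild type.

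RNA polymerase II transcribes protein-coding genes and many non-coding RNAs. A pair of large subunits forms its catalytic centre, smaller subunits complete the core, and a stalk of 2 subunits stands next to the exit of the RNA. Some of the small subunits are also built into RNA polymerases I and III. Mediator is the coactivator that passes signals from DNA-bound activators to the polymerase at promoters. Its head and middle modules contact the polymerase, its tail receives most activators, MED14 runs through the complex as a backbone, and a dissociable kinase module holds CDK8 or CDK19 with cyclin C, MED12 and MED13 or MED13L. TAF2 belongs to TFIID, the general factor that binds the core promoter and forms the preinitiation complex together with the polymerase and Mediator.

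Taf2 itself stood at 13.9, 15.7, 13.4 and 12.7 CPM (read counts normalised to TMM-scaled library sizes) in the Taf2 knockout libraries, against 42.5, 46.4, 45.1 and 42.2 CPM in the wild-type libraries (log2 fold change -1.66, SE 0.061; edgeR adjusted p = 9.03e-15). Every library matched its label. Of 11 hepatocyte markers tested, which include Alb (serum albumin), Ttr and Hnf4a, 7 were higher and 2 lower. The lower ones were Apoa1 and Cps1 (log2 fold changes of -0.29 and -0.65). The 11 markers summed to 74426 to 80467 CPM in the Taf2 knockout and 55574 to 59778 CPM in wild type. Most of each sum was Alb, which averaged 55183 CPM in the Taf2 knockout and 38035 CPM in wild type. Markers of other liver cells moved with genotype. All 11 tested macrophage markers were higher, with summed levels of 236.6 to 266.2 CPM in the Taf2 knockout and 87.7 to 116.6 CPM in wild type. Most of that sum was Cd68 (172.5 CPM in the Taf2 knockout, 84.1 CPM in wild type). The median log2 fold change of the 11 was 2.53. Also higher were 10 of 11 endothelial markers (170.3 to 177.5 CPM in the Taf2 knockout, 69.2 to 76.2 CPM in wild type). Their median log2 fold change was 1.15. Of 10 stellate cell and fibroblast markers 9 were higher (139.5 to 153.3 CPM in the Taf2 knockout, 65.4 to 69.8 CPM in wild type). Reln made up most of that sum (101.7 CPM in the Taf2 knockout, 61.7 CPM in wild type), and the median was 2.50. Of 5 cholangiocyte markers 2 were higher and 3 lower, with sums of 170.8 to 198.7 CPM in the Taf2 knockout and 135.9 to 150.9 CPM in wild type. Their median log2 fold change was -0.27, while Sox9 averaged 73.5 CPM in the Taf2 knockout and 31.0 CPM in wild type. Ptprc, a marker of all leukocytes, was higher (2.11), while the lymphocyte genes Cd3d, Ms4a1 and Nkg7 had 0 counts in every library. Of the 6 erythroid markers only Alas2 passed the filter on low counts, and it was lower (-0.43). The part of these cells in the subunit values was not tested, and in a bulk sample a change in the number of cells of a type and a change in RNA per cell cannot be told apart.

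The promoters of the subunit genes are shown first, because TFIID acts there. RefSeq windows from 250 bases before to 50 after the start site (build GRCm38.p6) were matched for 36 of the 44 genes, at 41 start sites. Med23, Polr2k, Cdk19, Med8, Polr2g, Polr2d, Med30 and Med24 had no entry. Their median GC content was 59.0%, against 60.67% over the promoters of all genes tested. Shown are the 100 bases before and 50 after the start for the 8 genes with the largest changes among those that passed the test and had a single start in the table, 4 of which were higher in the Taf2 knockout (Med31, Med26, Med4 and Ccnc) and 4 lower (Polr2i, Polr2e, Med11 and Med14). Med31 lies at chr11:72215543-72215692, minus strand, Med26 at chr8:72548261-72548410, minus strand, Med4 at chr14:73509949-73510098, plus strand and Ccnc at chr4:21727601-21727750, plus strand. Polr2i lies at chr7:30231974-30232123, plus strand, Polr2e at chr10:80039610-80039759, minus strand, Med11 at chr11:70451818-70451967, plus strand and Med14 at chrX:12761924-12762073, minus strand. The RefSeq start of Med26 lies outside the gene as GENCODE annotates it. A check of strand against the gene's transcripts passed for the other 7 windows. It could not pass for Med26, whose window begins at 72548261 while the gene ends at 72548270, a shared stretch too short for the check. Both sources place Med26 on the minus strand. Capitals mark matches on either strand to the motifs searched. The GC box was read as GGGCGG and the TATA box as TATAAA. For the ETS core the letters were CCGGAAG. The box named CCAAT was read by those letters. No printed match overlaps another. The core words of the NRF1 and YY1 motifs were searched as well.
Med31: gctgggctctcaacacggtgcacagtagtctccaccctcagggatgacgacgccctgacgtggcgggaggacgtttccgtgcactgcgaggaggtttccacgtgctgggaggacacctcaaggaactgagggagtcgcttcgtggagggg
Med26: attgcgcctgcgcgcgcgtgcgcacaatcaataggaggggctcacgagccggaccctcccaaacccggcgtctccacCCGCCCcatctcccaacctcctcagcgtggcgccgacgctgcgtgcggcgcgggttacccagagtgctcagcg
Med4: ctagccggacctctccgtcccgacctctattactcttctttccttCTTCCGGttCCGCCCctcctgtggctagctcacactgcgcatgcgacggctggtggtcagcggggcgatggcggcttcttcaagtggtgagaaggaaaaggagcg
Ccnc: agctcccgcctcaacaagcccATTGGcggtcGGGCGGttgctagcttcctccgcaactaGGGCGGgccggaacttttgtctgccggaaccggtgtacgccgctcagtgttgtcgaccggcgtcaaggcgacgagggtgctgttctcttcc
Polr2i: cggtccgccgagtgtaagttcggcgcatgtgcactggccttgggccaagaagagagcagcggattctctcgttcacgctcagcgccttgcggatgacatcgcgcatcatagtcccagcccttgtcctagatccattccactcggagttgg
Polr2e: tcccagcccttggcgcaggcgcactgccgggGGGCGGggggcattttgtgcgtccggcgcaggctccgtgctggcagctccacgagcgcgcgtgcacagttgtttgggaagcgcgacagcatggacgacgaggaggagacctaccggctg
Med11: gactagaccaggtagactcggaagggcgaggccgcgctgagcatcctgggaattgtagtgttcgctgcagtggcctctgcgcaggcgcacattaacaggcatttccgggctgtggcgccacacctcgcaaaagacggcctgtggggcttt
Med14: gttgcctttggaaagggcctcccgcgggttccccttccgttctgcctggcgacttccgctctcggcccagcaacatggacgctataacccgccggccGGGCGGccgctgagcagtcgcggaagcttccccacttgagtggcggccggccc
None of these 8 windows held a TATAAA, and Med31, Polr2i and Med11 held no match to any of the motifs. Over the full windows, GC boxes stood in 27 of the 41 subunit promoters (65.9%), against 61.6% of the promoters of tested genes and 35.7% of all promoters. An ETS core stood in 12 (29.3%), against 17.3% of tested and 8.86% of all promoters, and among the genes above Med4 and Med14 held it. CCAAT, on either strand as for all motifs here, was found in 15 (36.6%), against 37.6% of tested and 37.4% of all promoters. TATAAA on either strand was found in 5 (12.2%), against 7.59% of tested and 13.6% of all promoters, and in 1 of them it lay on the gene's strand within 40 to 16 bases before the start. The NRF1 word was found in 0 of the 41 subunit promoters, against 2.06% of tested promoters, and the YY1 word in 0, against 1.52%. A match is a run of letters and not a measured binding site.

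Compared between the genotypes, the subunit transcripts moved little relative to all genes tested, and in both directions. All levels are scaled to library size, so a change shared by most transcripts would not be seen. Of the 44 genes, 12 were higher and 9 lower in the Taf2 knockout at an edgeR adjusted p under 0.05, and 23 did not pass. That is 47.7% of the genes, where 61.4% of the 12122 genes tested were called (30.2% higher and 31.2% lower). The groups of libraries did not overlap for 14 of the 44 (31.8%), against 54.7% of all genes tested. A single gene, Med31, passed with a change of at least 0.5 on the log2 scale (2.27% of the 44), against 21.6% of all genes tested. The median absolute log2 fold change was 0.13 over the 44 genes and 0.22 over all genes tested, and the median signed change was 0.040 and -0.0035. For the 44 genes that median was 0.020 without wild-type replicate 3 and 0.064 with upper-quartile scaling. Over all genes tested it was -0.0048 without wild-type replicate 3 and 0.020 with upper-quartile scaling. Summed over the 32 Mediator genes, the level was 1005 ± 4.07 CPM in the Taf2 knockout and 1006 ± 6.92 CPM in wild type (SD, n = 4 each).

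**Figure D1:**
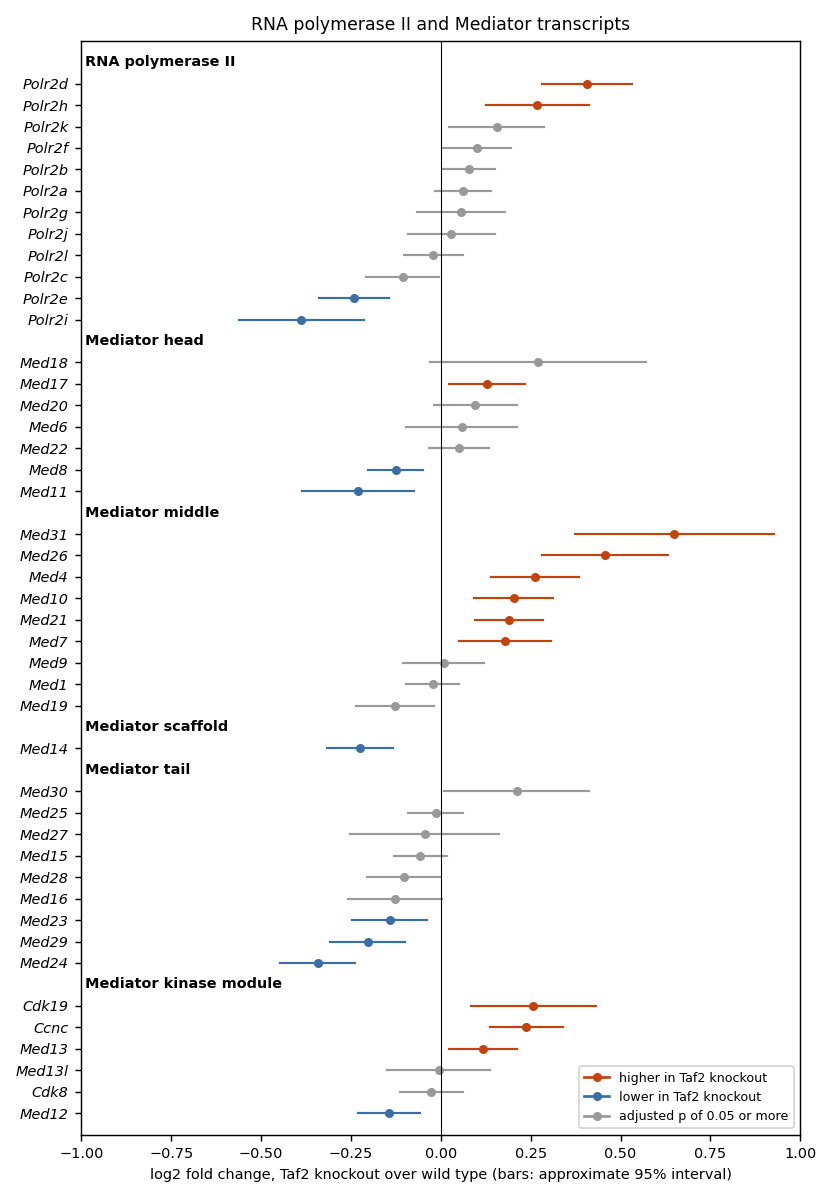
Log2 fold change (Taf2 knockout over wild type) of each of the 44 subunit transcripts, by complex and module, with bars for the approximate 95% interval, 4 libraries per genotype, and red for genes higher, blue for genes lower at an edgeR adjusted p under 0.05 and grey for the rest. The middle module holds 6 red and 0 blue genes, the tail 0 red and 3 blue.

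Of the 12 RNA polymerase II genes, 2 were higher (Polr2d and Polr2h), 2 were lower (Polr2i and Polr2e) and 8 did not pass, where 30.2% of all genes tested were higher and 31.2% lower, with a median log2 fold change of 0.059. Polr2a, which encodes the catalytic subunit with the heptad-repeat tail that CTD kinases phosphorylate, was the most abundant transcript of the 44 in CPM. It stood at 145.3, 145.9, 136.3 and 142.4 CPM in the Taf2 knockout libraries, against 131.8, 137.3, 144.9 and 132.02 CPM in the wild-type libraries. The genotypes overlapped, and the log2 fold change of 0.062 had an approximate 95% interval from -0.015 to 0.14 (edgeR adjusted p = 0.179). Polr2b, the other large subunit, averaged 59.7 ± 2.13 CPM in the Taf2 knockout and 56.5 ± 1.27 CPM in wild type (log2 fold change 0.077; edgeR adjusted p = 0.0838). It passed as higher with upper-quartile scaling (0.0271) and with a stricter filter on low counts (0.0477), both edgeR adjusted p. Polr2d encodes a subunit of the stalk and lies on chromosome 18. Its level was 18.1, 17.04, 17.1 and 16.5 CPM in the Taf2 knockout and 13.02, 13.4, 13.2 and 12.3 CPM in wild type, so every knockout library was above every wild-type one (log2 fold change 0.41, SE 0.063; edgeR adjusted p = 1.39e-05). Polr2g, the partner of Polr2d in the stalk, averaged 26.3 ± 2.26 CPM in the Taf2 knockout and 25.2 ± 1.14 CPM in wild type and did not pass (log2 fold change 0.056; edgeR adjusted p = 0.455). Polr2i encodes RPB9, a small subunit that in yeast acts in start site choice and transcript fidelity. It stood at 8.25, 7.54, 8.73 and 8.43 CPM in the Taf2 knockout libraries, against 12.4, 9.28, 10.5 and 10.9 CPM in the wild-type libraries. All knockout values were below all wild-type values (log2 fold change -0.39, SE 0.089; edgeR adjusted p = 0.000793). Exons of Polr2i and of Tbcb, on the opposite strand, share 325 bases (26.8% of the Polr2i exons), and Tbcb had a log2 fold change of -0.062 (edgeR adjusted p = 0.281). The sources used here do not say whether counting used strand. Polr2c and Polr2j encode the pair of alpha-like subunits on which the enzyme assembles. Neither passed, at 34.6 ± 2.10 CPM in the Taf2 knockout and 37.2 ± 1.76 CPM in wild type for Polr2c and 20.1 ± 1.08 CPM in the Taf2 knockout and 19.7 ± 1.09 CPM in wild type for Polr2j.

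Among the 5 subunits shared with RNA polymerases I and III, Polr2h was higher, Polr2e lower, and Polr2f, Polr2k and Polr2l did not pass. Polr2e was at 44.3, 40.1, 44.3 and 45.5 CPM in the Taf2 knockout libraries, against 52.97, 46.8, 52.9 and 53.3 CPM in the wild-type libraries. Wild-type replicate 2 was the lowest of its genotype and still above every knockout library (log2 fold change -0.24, SE 0.050; edgeR adjusted p = 0.000299). For Polr2h the values were 21.5, 20.7, 23.04 and 20.98 CPM in the Taf2 knockout and 17.7, 16.1, 16.9 and 20.9 CPM in wild type. Wild-type replicate 4 reached into the knockout range, and the remaining wild-type libraries lay below it (log2 fold change 0.27, SE 0.073; edgeR adjusted p = 0.00339). Its exons overlap those of Clcn2 on the opposite strand by 82 bases, and Clcn2 was higher too (log2 fold change 0.67; edgeR adjusted p = 3.35e-08). Polr2l, the most abundant shared subunit in CPM, averaged 69.9 ± 2.41 CPM in the Taf2 knockout and 70.9 ± 4.09 CPM in wild type. Polr2k averaged 17.7 ± 0.391 CPM in the Taf2 knockout and 15.8 ± 1.39 CPM in wild type and was the nearest to the threshold (log2 fold change 0.16; edgeR adjusted p = 0.0516), and Polr2f averaged 45.2 ± 0.249 CPM in the Taf2 knockout and 42.1 ± 3.11 CPM in wild type. Polr2k passed in 7 of 16 alternatives. Among these were limma-voom (adjusted p = 0.0434) and, by edgeR adjusted p, RLE scaling (0.0447), upper-quartile scaling (0.0286) and a stricter filter on low counts (0.0379). The rest were the fits without Taf2 knockout replicate 2 (0.0474) and without wild-type replicate 1 (0.0173) or 4 (0.0477), all edgeR adjusted p. Without those wild-type replicates Polr2f passed as well (0.0213 and 0.0484), which brought the RNA polymerase II genes called higher to 4. A stricter filter on low counts gave 4 as well. Upper-quartile scaling gave 5, Polr2f among them (edgeR adjusted p = 0.0346), and it also raised the calls over all genes tested (4001 higher, against 3663). Polr2c passed as lower without wild-type replicate 3 (edgeR adjusted p = 0.0412).

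**Figure D2:**
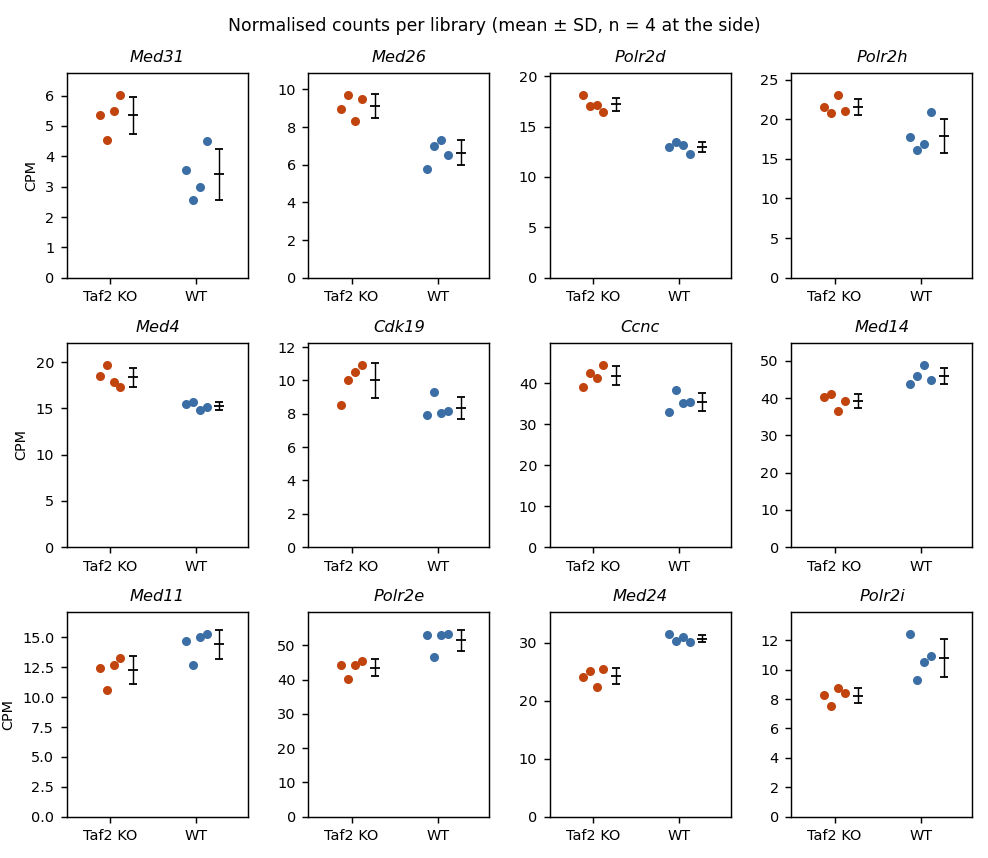
Normalised counts (CPM, from 0) in each library for the 12 subunit genes with the largest changes among those that passed, Taf2 knockout at the left and wild type at the right of each panel, with the mean and SD of 4 libraries beside the points. The order is from the largest rise (Med31) to the largest fall (Polr2i), and Polr2h, Cdk19 and Med11 are the genes of this set whose genotypes overlap.

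In the middle module of Mediator 6 of 9 genes were higher (Med31, Med26, Med4, Med10, Med21 and Med7), where 30.2% of all genes tested were. None of the 9 was lower, and Med1, Med9 and Med19 did not pass. The median log2 fold change was 0.19. Over 16 alternatives 5 or 6 of the 9 were higher and 0 or 1 lower. Over those 9 genes together, the summed level was 253.9 to 261.9 CPM per Taf2 knockout library and 229.9 to 245.2 CPM per wild-type library, without overlap. Med31, a small and highly conserved subunit, had the largest change of the 44 genes. It stood at 5.37, 4.55, 5.49 and 6.02 CPM in the Taf2 knockout libraries, against 3.56, 2.58, 2.98 and 4.50 CPM in the wild-type libraries (log2 fold change 0.65, SE 0.14; edgeR adjusted p = 0.000519). Wild-type replicate 4 lay just below the lowest knockout library, and the gene had 53 to 127 counts per library. Med26, the subunit through which Mediator contacts elongation factors of the super elongation complex, was at 8.97, 9.69, 8.30 and 9.47 CPM in the Taf2 knockout and 5.77, 6.999, 7.31 and 6.51 CPM in wild type. All knockout libraries were above all wild-type libraries (log2 fold change 0.46, SE 0.090; edgeR adjusted p = 0.000184). Med4 was at 18.5, 19.7, 17.9 and 17.3 CPM in the Taf2 knockout libraries, against 15.4, 15.7, 14.8 and 15.1 CPM in the wild-type libraries, where the values were close together and all lower (log2 fold change 0.26, SE 0.062; edgeR adjusted p = 0.00111).

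Rises of the remaining middle genes were smaller. Med21, which pairs with MED7 in a hinge of the module in yeast, averaged 59.4 ± 3.19 CPM in the Taf2 knockout and 52.1 ± 3.42 CPM in wild type (log2 fold change 0.19; edgeR adjusted p = 0.00213). Tm7sf3, which shares 197 exonic bases with Med21 on the opposite strand, was lower (log2 fold change -0.49; edgeR adjusted p = 6.44e-09). Med10 averaged 35.4 ± 2.06 CPM in the Taf2 knockout and 30.8 ± 2.12 CPM in wild type (edgeR adjusted p = 0.00413), and Med7 19.4 ± 1.28 CPM in the Taf2 knockout and 17.2 ± 0.928 CPM in wild type (edgeR adjusted p = 0.0224). The call on Med7 ended without Taf2 knockout replicate 1 (edgeR adjusted p = 0.0665) or 4 (0.0565) and without wild-type replicate 4 (0.0677). Med1, through which nuclear receptors bind Mediator and which was the most abundant middle subunit in CPM, stood at 59.04, 61.1, 59.4 and 59.7 CPM in the Taf2 knockout libraries, against 62.95, 62.3, 60.1 and 57.4 CPM in the wild-type libraries. The ranges overlapped, and the log2 fold change of -0.022 had an approximate 95% interval from -0.096 to 0.052 (edgeR adjusted p = 0.631). Med9 averaged 21.6 ± 1.22 CPM in the Taf2 knockout and 21.5 ± 0.493 CPM in wild type and Med19 28.2 ± 1.21 CPM in the Taf2 knockout and 30.8 ± 2.08 CPM in wild type, with edgeR adjusted p of 0.913 and 0.0539. Without wild-type replicate 3 Med19 passed as lower (edgeR adjusted p = 0.0101), and likewise with no filter on low counts (0.0417). The backbone subunit gene Med14, on the X chromosome as is Med12 of the kinase module, was lower. It had 40.2, 41.2, 36.7 and 39.1 CPM in the Taf2 knockout and 43.9, 45.98, 49.01 and 44.9 CPM in wild type, and no knockout library reached the lowest wild-type value (log2 fold change -0.22, SE 0.047; edgeR adjusted p = 0.000388).

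**Figure D3:**
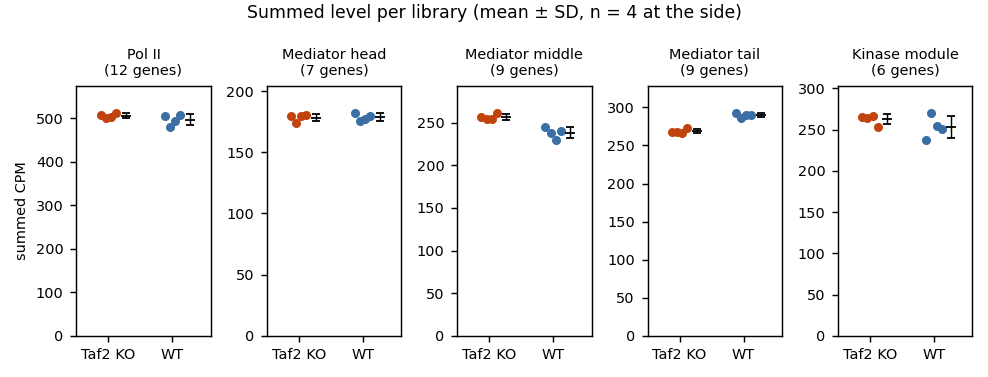
Summed level (CPM, axes from 0) of the genes of RNA polymerase II and of 4 Mediator modules without Med14 in each library, Taf2 knockout at the left and wild type at the right, with the mean and SD of 4 libraries beside the points. The genotypes separate for the middle module, which is higher in the knockout, and for the tail, which is lower, and overlap for the others.

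In the tail 3 of 9 genes were lower (Med24, Med29 and Med23), a share close to the 31.2% of all genes tested. None was higher and 6 did not pass, with a median log2 fold change of -0.10. Over the alternatives 2 to 4 were lower and 0 or 1 higher. Its summed level was 266.9 to 272.5 CPM per Taf2 knockout library and 285.9 to 293.3 CPM per wild-type library. The placing of Med27, Med28, Med29 and Med30 in the tail follows structures of mammalian Mediator, and other schemes put some of them in the head. Med24, a subunit of the part of the tail that activators reach, was at 23.997, 25.1, 22.3 and 25.5 CPM in the Taf2 knockout libraries, against 31.5, 30.3, 31.005 and 30.03 CPM in the wild-type libraries. The genotypes were well apart (log2 fold change -0.34, SE 0.053; edgeR adjusted p = 1.33e-05), and this was the largest fall among the Mediator genes. Med29 was at 39.99, 37.9, 38.1 and 39.2 CPM in the Taf2 knockout and 45.99, 39.8, 44.002 and 48.9 CPM in wild type, where replicate 2 lay within the knockout range (log2 fold change -0.20, SE 0.053; edgeR adjusted p = 0.0026). Med23, through which MAP kinase signalling reaches Mediator by way of the factor ELK1, was at 24.6, 26.7, 23.8 and 25.9 CPM in the Taf2 knockout libraries, against 27.9, 27.5, 28.8 and 27.2 CPM in the wild-type libraries. The groups did not overlap but lay close together (log2 fold change -0.14, SE 0.053; edgeR adjusted p = 0.0248). Med23 lost its call with upper-quartile scaling (adjusted p = 0.0584), with DESeq2 (0.0594), without Taf2 knockout replicate 1 (0.0777) or 3 (0.0971) and without wild-type replicate 3 (0.0519).

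The other tail genes did not pass. Med15, which binds the lipogenic factor SREBP and was the most abundant tail transcript in CPM, stood at 74.4, 70.8, 72.6 and 72.1 CPM in the Taf2 knockout libraries, against 71.9, 79.2, 77.04 and 73.8 CPM in the wild-type libraries. The ranges overlapped (log2 fold change -0.057, approximate 95% interval from -0.13 to 0.016; edgeR adjusted p = 0.197). Med25, which the viral activator VP16 binds, averaged 44.9 ± 0.822 CPM in the Taf2 knockout and 45.4 ± 0.684 CPM in wild type (log2 fold change -0.014), Med16 15.8 ± 0.907 CPM in the Taf2 knockout and 17.3 ± 1.06 CPM in wild type (-0.13) and Med28 31.7 ± 1.72 CPM in the Taf2 knockout and 34.1 ± 1.54 CPM in wild type (-0.10). Med27 and Med30 were the tail transcripts of lowest level in CPM, at 7.13 ± 1.04 CPM in the Taf2 knockout and 7.31 ± 0.713 CPM in wild type for Med27 and 8.28 ± 0.933 CPM in the Taf2 knockout and 7.13 ± 0.951 CPM in wild type for Med30. Med30 had a positive fold change (0.21; edgeR adjusted p = 0.0816) and passed without Taf2 knockout replicate 1 (0.0436) or wild-type replicate 1 (0.0141), while without Taf2 knockout replicate 3 its log2 fold change was 0.14 (0.27). Med28 passed as lower without Taf2 knockout replicate 4 (edgeR adjusted p = 0.0348).

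In the head, which contacts the polymerase, 1 of 7 genes was higher (Med17), 2 were lower (Med8 and Med11) and 4 did not pass, where 30.2% of all genes tested were higher and 31.2% lower. The median log2 fold change was 0.059, and 0.093 without Taf2 knockout replicate 2 or 0.10 without wild-type replicate 4. Med8, the most abundant head transcript in CPM, was at 52.2, 49.6, 49.5 and 53.4 CPM in the Taf2 knockout libraries, against 57.4, 54.6, 55.7 and 55.8 CPM in the wild-type libraries. The knockout libraries were all lower (log2 fold change -0.13, SE 0.039; edgeR adjusted p = 0.00882). Med11 was at 12.5, 10.6, 12.7 and 13.3 CPM in the Taf2 knockout and 14.7, 12.7, 15.03 and 15.3 CPM in wild type, where replicate 2 fell within the knockout range (log2 fold change -0.23, SE 0.079; edgeR adjusted p = 0.0165). Med17, the scaffold of the head, was at 26.2, 26.7, 27.8 and 28.2 CPM in the Taf2 knockout libraries, against 24.9, 26.5, 23.4 and 24.8 CPM in the wild-type libraries. Here wild-type replicate 2 overlapped the knockout range (log2 fold change 0.13, SE 0.054; edgeR adjusted p = 0.0458). Being close to the threshold, Med17 lost its call in 8 of 16 alternatives, among them DESeq2 (adjusted p = 0.0717), the replicate block (0.0554) and the omission of Taf2 knockout replicate 3 (0.0852) or 4 (0.0908) or of wild-type replicate 1 (0.0868), 3 (0.125) or 4 (0.087). That on Med11 ended without Taf2 knockout replicate 2 (edgeR adjusted p = 0.0715). Med22 averaged 49.3 ± 1.75 CPM in the Taf2 knockout and 47.6 ± 2.02 CPM in wild type, Med20 18.8 ± 0.405 CPM in the Taf2 knockout and 17.5 ± 0.816 CPM in wild type and Med6 15.4 ± 0.855 CPM in the Taf2 knockout and 14.8 ± 1.78 CPM in wild type. Med18, the head transcript of lowest level, averaged 4.25 ± 0.907 CPM in the Taf2 knockout and 3.52 ± 0.633 CPM in wild type with 59 to 114 counts per library (log2 fold change 0.27, SE 0.15; edgeR adjusted p = 0.135). It passed without Taf2 knockout replicate 4 (0.0328) or wild-type replicate 4 (0.0462).

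In the kinase module 3 of 6 genes were higher (Ccnc, Cdk19 and Med13), Med12 was lower and Cdk8 and Med13l did not pass. The 4 of 6 called are close to the 61.4% called of all genes tested. Ccnc encodes cyclin C, the partner of both kinases, and stood at 39.2, 42.5, 41.2 and 44.6 CPM in the Taf2 knockout libraries, against 33.1, 38.3, 35.2 and 35.5 CPM in the wild-type libraries. No wild-type library reached the knockout range (log2 fold change 0.24, SE 0.052; edgeR adjusted p = 0.000516). Tstd3, whose exons share 276 bases with Ccnc on the opposite strand, was lower (log2 fold change -0.41; edgeR adjusted p = 3.58e-05). Med12, which activates the kinase, was at 41.7, 39.7, 38.3 and 39.4 CPM in the Taf2 knockout and 42.9, 44.7, 45.8 and 42.7 CPM in wild type, with all knockout libraries lower (log2 fold change -0.14, SE 0.044; edgeR adjusted p = 0.00738). Paralogs, Cdk8 and Cdk19, encode the kinase itself. Cdk8 was at 62.04, 57.6, 60.8 and 55.1 CPM in the Taf2 knockout libraries, against 59.1, 64.2, 56.5 and 60.2 CPM in the wild-type libraries. The ranges overlapped (log2 fold change -0.026, approximate 95% interval from -0.11 to 0.062; edgeR adjusted p = 0.637). Cdk19 was at 8.51, 10.04, 10.5 and 10.9 CPM in the Taf2 knockout and 7.90, 9.33, 8.04 and 8.15 CPM in wild type. Knockout replicate 1 lay within the wild-type range and the rest above it (log2 fold change 0.26, SE 0.089; edgeR adjusted p = 0.017). Per library the ratio of Cdk8 to Cdk19 counts was 7.29, 5.73, 5.79 and 5.04 in the Taf2 knockout and 7.48, 6.88, 7.03 and 7.39 in wild type, so that 3 of 4 knockout libraries were below every wild-type one. These ratios are of read counts and are not corrected for length.

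Med13 and Med13l encode the paralogous subunits that tether the kinase module to the core. Med13, the most abundant Mediator transcript in CPM, stood at 85.4, 87.2, 87.8 and 80.2 CPM in the Taf2 knockout libraries, against 69.5, 84.5, 80.6 and 79.7 CPM in the wild-type libraries. Wild-type replicate 1 was the lowest by far, replicate 4 lay just below the knockout range, and replicates 2 and 3 lay within it (log2 fold change 0.12, SE 0.049; edgeR adjusted p = 0.0433). Without that library the log2 fold change was 0.060 and the edgeR adjusted p 0.22. Leaving out wild-type replicate 3 (0.0512) or 4 (0.0588) ended the call too, as did leaving out Taf2 knockout replicate 1 (0.0617), 2 (0.0757) or 3 (0.0803). Med13l was at 28.6, 27.5, 27.4 and 23.1 CPM in the Taf2 knockout and 24.9, 29.7, 28.5 and 24.1 CPM in wild type, with ranges that overlapped almost fully (log2 fold change -0.0063; edgeR adjusted p = 0.948). The ratio of Med13 to Med13l counts was 2.99, 3.17, 3.21 and 3.47 per Taf2 knockout library and 2.79, 2.84, 2.83 and 3.30 per wild-type library. The call on Cdk19 ended without Taf2 knockout replicate 4 (edgeR adjusted p = 0.0547) and without wild-type replicate 1 (0.0527) or 3 (0.0511). Without either of these wild-type replicates, Ccnc alone of the 6 genes was called higher.

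Levels of different subunits were compared per kilobase, with the mean length of each gene's RefSeq transcripts as matched in GENCODE. All 44 genes had a length. On this scale the RNA polymerase II genes ranged from 10.1 to 51.02 CPM per kilobase in the Taf2 knockout (median 26.1) and from 12.8 to 47.5 in wild type (median 25.9). The Mediator genes spread more widely, from 1.87 to 73.03 CPM per kilobase in the Taf2 knockout (median 9.13) and from 1.56 to 63.97 in wild type (median 8.77). Mediator transcripts were longer, with a median length of 2333 bases against 982.5 for RNA polymerase II. Over the 44 genes, level per kilobase in wild type fell with length (Spearman correlation -0.55). Length is the divisor of that level, which by itself favours a negative correlation, so no conclusion is drawn from it. The part of length in the difference between the complexes was not tested. Med21 was the highest of all 44 in both genotypes, at 73.03 ± 3.92 CPM per kilobase in the Taf2 knockout and 63.97 ± 4.20 in wild type (SD, n = 4 each). Polr2f followed, at 51.02 ± 0.282 in the Taf2 knockout and 47.5 ± 3.51 in wild type. In the Taf2 knockout Polr2l came next (42.4 ± 1.46), before Med10 (38.8 ± 2.26), Med8 (38.2 ± 1.44) and Polr2e (37.9 ± 2.05), and the last 3 did not differ beyond their spread. In wild type Polr2e (44.8 ± 2.75) came before Polr2l (42.97 ± 2.48) and Med8 (41.7 ± 0.850), where neighbours did not differ beyond their spread. Cdk19 was the lowest in both genotypes, at 1.87 ± 0.198 CPM per kilobase in the Taf2 knockout and 1.56 ± 0.123 in wild type, while its paralog Cdk8 was at 19.8 ± 1.05 in the Taf2 knockout and 20.2 ± 1.07 in wild type. Med18, Med26, Med13l and Med31 made up the rest of the lowest 5. Polr2a, the highest in CPM, ranked 15 in the Taf2 knockout and 14 in wild type per kilobase. In the Taf2 knockout Polr2i had the lowest level of the 12 RNA polymerase II genes (10.1 ± 0.616 CPM per kilobase), and in wild type Polr2d had it (12.8 ± 0.489), which did not differ from Polr2i (13.2 ± 1.57) beyond their spread.

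**Figure D4:**
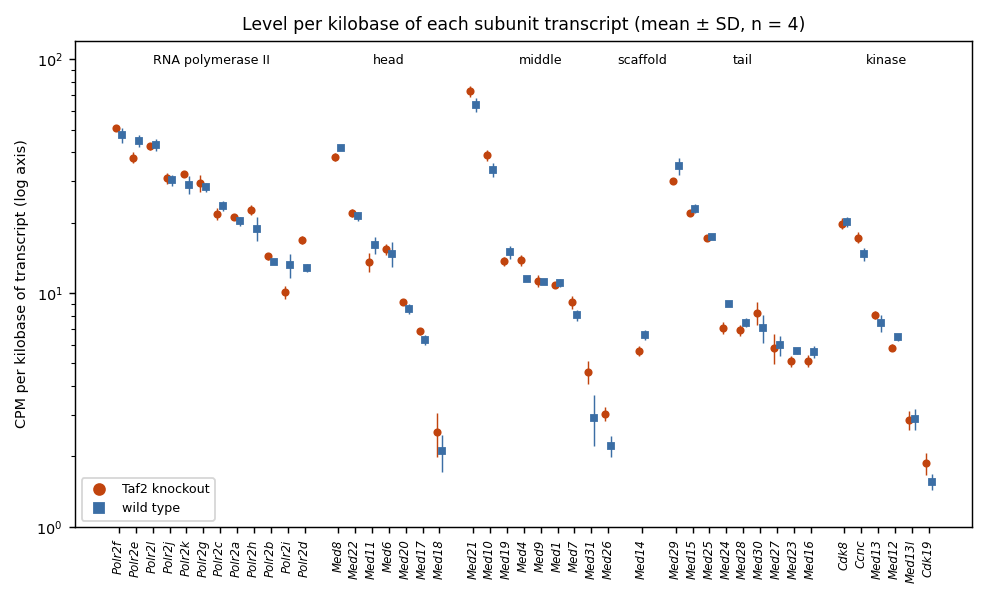
Level of each subunit transcript in CPM per kilobase of transcript (log axis), mean and SD of 4 libraries, Taf2 knockout as circles at the left and wild type as squares at the right of each gene, ordered by wild-type level within each module. Med21 is the highest and Cdk19 the lowest in both genotypes, and Med14 stands alone as the scaffold.

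Genes that work with the polymerase were examined for comparison, against the same share of 61.4% called. Of 19 subunits of RNA polymerases I and III, 4 were higher and 7 lower (median log2 fold change -0.067). Lower were Polr3e, Polr3c and Polr1a, the largest subunit of RNA polymerase I, with log2 fold changes of -0.33, -0.26 and -0.22. Higher were Polr1d and the polymerase I genes Twistnb (0.29) and Cd3eap (0.24). Polr1d encodes an alpha-like subunit that polymerases I and III share. It was at 129.7 ± 3.46 CPM in the Taf2 knockout and 113.3 ± 5.02 CPM in wild type. Of 14 factors that assemble or import RNA polymerase II or bind it, 4 were higher and 1 was lower (median 0.011). The prefoldin gene Pfdn2 was the one that fell (-0.23), while Ruvbl2 (0.16), Gpn3 (0.22) and Slc7a6os (0.15) rose. The largest edgeR adjusted p among the genes named so far in this comparison was 0.0301.

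Among 18 kinases and phosphatases of the polymerase's C-terminal domain and their partners, 4 were higher and 5 lower (median log2 fold change -0.038). Ctdp1, the phosphatase FCP1 that recycles the polymerase, was at 44.9 ± 2.01 CPM in the Taf2 knockout and 32.6 ± 0.932 CPM in wild type (log2 fold change 0.46, SE 0.046; edgeR adjusted p = 3.23e-08). Ctdspl, another phosphatase gene, was higher at a low level (0.76), and the elongation kinase gene Cdk12 slightly higher (0.13). The related phosphatase genes Ctdsp1 (-0.25) and Ctdsp2 (-0.16) and the scaffold gene Rprd1a (-0.22) were lower. The estimated count of Ctdsp2 was not a whole number in 3 libraries. Of 28 elongation factors tested, 4 were higher and 10 lower (median -0.039). Supt5, the pausing and processivity factor SPT5, was at 207.9 ± 4.10 CPM in the Taf2 knockout and 246.7 ± 4.34 CPM in wild type (log2 fold change -0.25, SE 0.034; edgeR adjusted p = 2.48e-06). Aff1, a scaffold of the super elongation complex, fell (-0.35), as did Larp7, which stabilises the 7SK RNA (-0.37). Hexim1, the inhibitor of the kinase P-TEFb, rose (0.37), as did Eaf1 (0.19) and the scaffold gene Aff4 (0.14), which sits in the complex that MED26 contacts. The largest edgeR adjusted p among the genes named in this paragraph was 0.0191.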

How the data were processed

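The authors deposited estimated counts per gene for 24411 gene symbols, and the submitters' processing notes name RSEM and mm10, with version, aligner and strand setting not given in the sources used here. Per the labels' protocols, libraries came from a TruSeq RNA kit. The 8 columns named after the libraries were used, and 8 columns that match no sample were not. Expected counts were rounded. None of the 44 genes held values that were not whole. The filter on low counts was filterByExpr of edgeR, at a minimum count of 10 and total of 15. Genes were scaled by TMM and tested with edgeR's quasi-likelihood test, Taf2 knockout over wild type, with Benjamini-Hochberg adjustment over 12122 genes at 0.05. Each SE was derived from the log2 fold change and its F statistic, and an approximate 95% interval is a normal one around it. Lengths, positions and exon overlaps came from GENCODE M21 (GRCm38). Replicates differed by more than sampling noise (chi-square per degree of freedom 3.18 to 8.64). Software was edgeR 4.0.16, DESeq2 1.42.0 and limma 3.58.1 under R 4.3.3, and Python 3.11.15. The test was run on simulated counts before use. The outcome is not given here, and no conclusion is drawn from it. Values in every library are given for Polr2a, the paralog pairs, the most abundant gene of each complex or module and up to 3 called genes per direction in each (Med14 with the middle), and, of the lists of partner genes, the up to 3 called genes with the smallest p are named. The genes and lists were chosen with earlier results of these data known. Overlapping neighbours, and Polr2 or Med genes near a threshold, were named after their values were seen. The results were recomputed with DESeq2 and limma-voom, with RLE or upper-quartile scaling, with no or a stricter filter on low counts (1 CPM in 4 libraries), with libraries thinned to the smallest total, with a replicate block, without each library in turn, and with the longest transcript as a gene's length.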

Additional observations from a re-analysis of the deposited data

Results flagged for a closer look

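In 3 of the 88 sets of 4 libraries examined (44 genes in 2 genotypes), 1 library stood apart from the other 3, by a gap to its nearest neighbour divided by the range of the set (Dixon's ratio) above 0.829. Chance flags about 1 in 20 sets. Med25 was at 46.1 CPM, against 44.4 to 44.6 CPM in the other knockout libraries, in Taf2 knockout replicate 3 (ratio 0.882). Polr2e was at 46.8 CPM, against 52.9 to 53.3 CPM in the other wild-type libraries, in wild-type replicate 2 (ratio 0.948), and without that library its log2 fold change was -0.29 (edgeR adjusted p = 2.86e-05). Med22 was at 44.6 CPM, against 48.2 to 48.8 CPM in the other wild-type libraries, in wild-type replicate 4 (ratio 0.867), and without it the log2 fold change was 0.019 (edgeR adjusted p = 0.733).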

How the results depend on the processing

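Over the alternatives the genes called higher numbered 9 to 15 and those called lower 8 to 10. Upper-quartile scaling gave 15 and 8, DESeq2 11 and 8, no filter 11 and 10, and the leave-one-out fits 9 to 12 and 8 to 10. Upper-quartile scaling also moved the calls over all genes tested, from 3663 to 4001 higher and from 3784 to 3435 lower. The replicate block, fitted although same-numbered libraries did not deviate together (correlations -0.069 to 0.011), gave 11 and 9, and of the 44 genes it ended only the call on Med17. No fit moved a count of called genes by more than 1.5 times, for the 44 genes together or for all genes tested. Of the 21 called genes, 15 passed in all 16 alternatives, and no called gene changed direction in any. Fold changes near 0 that changed sign were all of genes that passed in no alternative. With upper-quartile scaling these were Polr2l (0.0030), Med1 (0.0017), Med25 (0.0096) and Med13l (0.018). With a stricter filter it was Med13l (0.0058), and after thinning Med9 (-1.3e-04) and Med27 (0.0070). Leaving out 1 library at a time gave -0.046 to 0.012 for Polr2l, -0.0045 to 0.069 for Polr2j, -0.013 to 0.051 for Med9, -0.099 to 0.052 for Med27, -0.055 to 0.010 for Cdk8 and -0.056 to 0.062 for Med13l. The cause was not tested. With the longest transcript in place of the mean length, ranks moved by up to 8 places. Med21 and Cdk19 were 44.5-fold apart in wild type in place of 40.95-fold. Med21 had 1 matched transcript and the other genes could only stay or fall, so its first place could not change. Cdk19 stayed lowest, and its own level could only fall. Exons of Med21 together span 3523 bases, against the 814 used, and levels by that length were not computed. The genes with the fewest counts were Med31 (53 to 127 per library) and Med18 (59 to 114), and they had the largest SE of the 44.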
